A study of Mus musculus with 4 samples.

Results

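Hepatocyte nuclei of the regenerating mouse liver that gave many scATAC-Seq counts were compared with nuclei of the same library that gave few. In scATAC-Seq the transposase Tn5 cuts DNA where chromatin is open, and a droplet barcode names the nucleus of each fragment. The library was made from hepatocytes of male C57BL/6J mouse liver, freed by collagenase perfusion 48 h after partial hepatectomy (PHx), the removal of part of the liver. The mice were 10 to 12 weeks old, and the PHx 48 h library came from 1 mouse. The undamaged liver (PHx 0 h) was used only where stated.

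Members were chosen by 1 measured value, the total count per barcode over all peaks. Of 4973 barcodes in the PHx 48 h library, 3892 held at least 1000 counts and were called nuclei, and the 4 libraries of the series held 20217 barcodes. Deep nuclei had at least 22000 counts and numbered 959, which was 24.6% of nuclei. Mid-depth nuclei had 6000 to 14000 counts and numbered 1174. The 701 nuclei between the limits belonged to neither class. Deep nuclei had a median of 31440 counts (quartiles 25838 and 41916), and mid-depth nuclei a median of 9446 (quartiles 7762 and 11593), a ratio of 3.33. These depths describe the selection and are not a finding. Each nucleus was thinned at random to 5000 counts, which kept 13.8% of the counts of deep nuclei and 51.5% of those of mid-depth nuclei. This equalised the number of counts and not the number of fragments behind them, because both ends of a fragment stayed more often in mid-depth nuclei. Thinning to 2500 whole fragments was therefore an alternative.

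**Figure D1:**
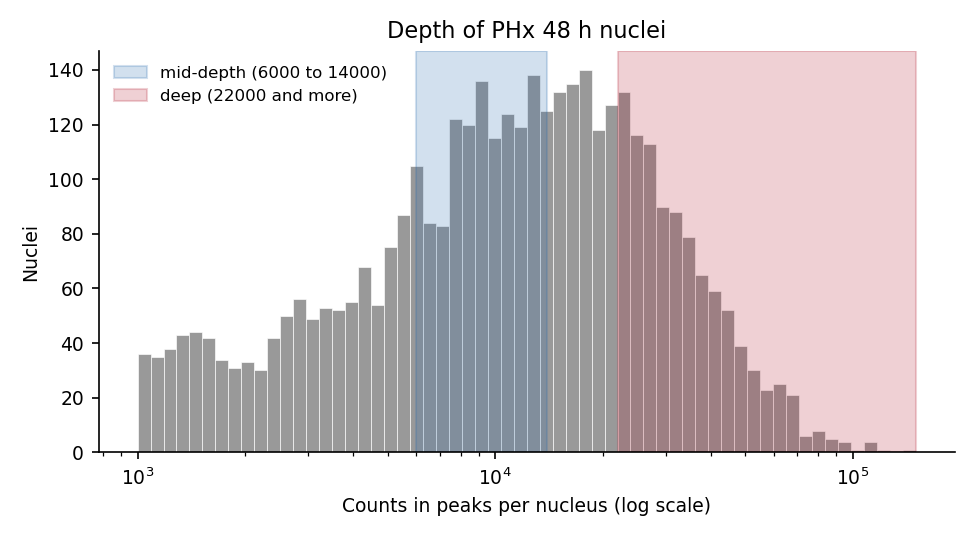
Number of PHx 48 h nuclei (vertical axis) by counts in peaks per nucleus (horizontal axis, log scale), with the mid-depth range shaded blue and the deep range shaded red. The main maximum of the smoothed distribution, at 16622 counts, lay between the classes, so both limits cut 1 broad peak.

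Depth did not fall into separate groups. The smoothed distribution had maxima at 1420 and 16622 counts and none in either class. The lowest deep nucleus had 22013 counts and the highest nucleus under that limit 21997. At the mid-depth limits, the nearest nuclei inside had 6006 and 13996 counts and those outside 5997 and 14001. The 138 nuclei of 20000 to under 22000 counts held 2186 CPM (counts per 1000000 thinned counts) in the pericentral list described below, and the 138 nuclei of 22000 to 24000 counts held 2062. In the periportal list they held 4555 and 4710 CPM. Both steps ran against the difference between the classes described below, with overlapping intervals.

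Hepatocyte nuclei can be diploid or polyploid, and most adult mouse hepatocytes are polyploid. Hepatocytes also differ by position in the lobule. Pericentral cells, around the central vein, carry out drug metabolism and glutamine synthesis under Wnt signalling. Periportal cells, near the portal vein, carry out the urea cycle, gluconeogenesis and amino acid breakdown. After PHx, hepatocytes of both zones can enter the cell cycle, and mid-lobular cells are known for it too. DNA content was not measured here, and no doublet caller was run, so a nucleus with more DNA, a doublet and a nucleus cut more fully cannot be told apart by depth.

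Barcodes recurred across libraries, and did so unevenly between the classes. Of the deep nuclei, 169 (17.6%) carried a barcode that was also in another library, 139 of them in PHx 0 h, against 21 (1.79%) of the mid-depth nuclei. The share reached 64.9% in nuclei of 45000 counts and more. The shared barcodes of deep nuclei with PHx 0 h had a median of 56967 counts at 48 h and of 428 counts at 0 h, and 10 of the 139 had at least 1000 counts at 0 h. Values without these barcodes are given for the zonation lists, the depth ranges, the zonation index, gene density and the cell cycle lists.

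Both classes were hepatocytes by their markers. The 12 hepatocyte markers, among them Alb (albumin), Apob and Trf, summed to 6834 CPM in deep and 6931 CPM in mid-depth nuclei. Class intervals were apart for 1 of the 12 genes, Cps1, which is also a gene of the periportal list described below. It was lower in deep nuclei, where 1.31% of all genes tested were apart in that direction and 1.56% in the other. Apoa1 and Apoc3 had identical counts. Clustering at 2500 fragments per nucleus gave 1 hepatocyte-low cluster of 37 nuclei, with Clec4f, a Kupffer cell gene, among its leading genes and a median log2 ratio to the mean of the other clusters of 0.72 for the endothelial and 0.61 for the Kupffer and myeloid markers. It held 2 of 959 deep nuclei (0.209%, exact binomial interval 0.0253 to 0.751) and 26 of 1174 mid-depth nuclei (2.21%, 1.45 to 3.23). The Kupffer and myeloid list, of which 2 of 10 genes reached the count minimum, summed to 131 CPM in deep and 147 CPM in mid-depth nuclei. The endothelial list summed to 275 and 264 CPM, the lymphocyte list to 92.0 and 92.0, the stellate list to 129 and 137, and the cholangiocyte list to 298 and 310. Over the 6 depth ranges used below, each thinned anew, so that their values differ from those of the classes by the noise of thinning, the endothelial list spanned 248 to 279 CPM, the Kupffer list 136 to 158, the lymphocyte list 85.9 to 103, the stellate list 124 to 145 and the cholangiocyte list 304 to 342.

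Deep and mid-depth nuclei differed in few genes, and Cyp2e1, Cyp2c29 and Ctsc, genes of lobular zonation, were among those with the widest ratios. For each of 5509 protein-coding genes with at least 500 thinned counts in both classes together, counts in peaks touching the gene body or the 2 kb upstream were summed per class. The log2 ratio of deep over mid-depth (pseudocount 5) had a median of 0.02 and an SD of 0.15 across genes. At a log2 ratio of 0.5 (1.41-fold), 4 genes were higher in deep nuclei, a background of 0.0726% of genes, and 6 were lower, 0.109%. The 4 higher genes were Cyp2e1 and Syce1, which share 1 peak, Cyp2c29 and Selenos. The 6 lower genes were Ctsc, Bcl2, Kazn, L3mbtl4, Isg20 and Sds. Of these, Isg20 shares most of its counts with Aen, and Sds with Plbd2. With 1 library, no replicate error exists, so no p-value is given. Intervals are exact 95% Poisson intervals on counts divided by 2, and cover counting error only. When every count was kept and each nucleus weighted equally, 3 genes (0.0546%) were higher and 4 (0.0727%) lower. The 3 were Cyp2e1, Syce1 and Cyp2c29, and the 4 were Ctsc, Hsd17b13, Arhgap10 and L3mbtl4. In another random thinning 10 genes were higher and 9 lower. Without the shared barcodes these counts were 5 and 5.

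**Figure D2:**
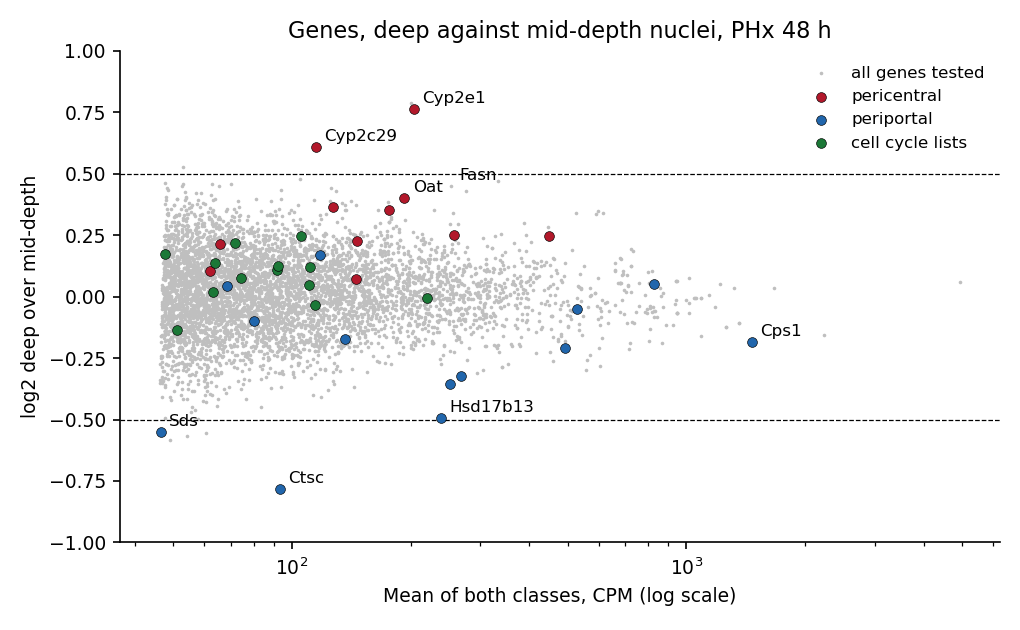
Log2 ratio of deep over mid-depth nuclei (vertical axis) against the mean of both classes in CPM (horizontal axis, log scale) for the 5509 genes tested in PHx 48 h. Dashed lines mark a log2 ratio of 0.5 in each direction. Pericentral genes (red) lie above 0, most periportal genes (blue) below it, and genes of the 3 cell cycle lists (green) lie within the lines.

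The start sites of Cyp2e1, Cyp2c29 and Ctsc, the genes farthest from a ratio of 1 apart from Syce1, which shares its peak with Cyp2e1, are shown because their loci had the widest ratios between the classes. Each line gives the 250 bases before the RefSeq gene start (GRCm38.p6, plus strand), at chr7:140763569-140763818, chr19:39286835-39287084 and chr7:88277835-88278084. Each window lies in a peak of the PHx 48 h library. Capitals mark matches on either strand to TATAAA (the core promoter box), CCAAT (the motif of NF-Y), GGGCGG (the motif of Sp1) and CTTTGAT (the TCF/LEF motif of Wnt signalling).
Cyp2e1: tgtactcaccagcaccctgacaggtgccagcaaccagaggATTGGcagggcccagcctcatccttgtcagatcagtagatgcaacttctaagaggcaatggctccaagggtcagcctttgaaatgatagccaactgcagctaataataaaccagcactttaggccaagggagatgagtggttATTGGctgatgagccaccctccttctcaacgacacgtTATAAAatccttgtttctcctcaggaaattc
Cyp2c29: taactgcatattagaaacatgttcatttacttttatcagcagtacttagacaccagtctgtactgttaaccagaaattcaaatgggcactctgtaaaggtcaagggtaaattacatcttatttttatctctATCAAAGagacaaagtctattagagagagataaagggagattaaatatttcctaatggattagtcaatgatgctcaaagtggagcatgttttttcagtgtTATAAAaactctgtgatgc
Ctsc: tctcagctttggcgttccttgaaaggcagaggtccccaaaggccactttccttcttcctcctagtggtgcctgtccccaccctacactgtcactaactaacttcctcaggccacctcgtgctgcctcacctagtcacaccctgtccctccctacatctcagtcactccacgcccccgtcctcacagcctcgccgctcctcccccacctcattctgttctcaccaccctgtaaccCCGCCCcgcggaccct
TATAAA stood in the windows of Cyp2e1 and Cyp2c29, 31 and 19 bases before the start, and in 12.4% of 32851 promoters of this length. CCAAT stood in 33.8% of them, GGGCGG in 32.7% and CTTTGAT in 3.21%. The motif CTTTGAT stood in the windows of 3 of 10 pericentral and 1 of 11 periportal genes with a promoter in the table. A match is a description of letters and not of a bound site.

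Pericentral genes were more accessible in deep nuclei. Of the 16 genes of the pericentral list, 11 reached the count minimum, and all 11 had a ratio above 0, with a median log2 ratio of 0.25 against 0.02 over all genes. Intervals of the classes were apart for 7 of the 11, all higher in deep nuclei, where 1.56% of all genes were apart in that direction. Cyp2e1 (chr7:140763739-140774987), a cytochrome P450 that oxidises ethanol and other small molecules, had 257 CPM (237 to 278) in deep and 151 CPM (137 to 166) in mid-depth nuclei, a log2 ratio of 0.76. Cyp2c29 (chr19:39269405-39330713), a cytochrome P450 of drug and fatty acid oxidation, had 139 CPM (125 to 155) and 91.0 CPM (80.4 to 103), a log2 ratio of 0.61. These 2 genes were the members past the fold. With counts reduced to presence or absence per peak and nucleus (binarised), the log2 ratio was 0.55 for Cyp2e1, 0.11 for Glul and 0.10 for Gulo, whose main values follow.

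The other pericentral genes had smaller ratios. Oat, ornithine aminotransferase, had 220 CPM in deep and 166 CPM in mid-depth nuclei (log2 ratio 0.40). Glul, the glutamine synthetase of the innermost pericentral cells, had 143 and 111 CPM (0.37). Aldh1a1, a retinal dehydrogenase, had 198 and 155 CPM (0.35). Cyp27a1, the sterol 27-hydroxylase, had a log2 ratio of 0.25 and Gulo, the last enzyme of vitamin C synthesis, of 0.25. For the 5 genes from Oat to Gulo the class intervals did not overlap. Members that included Lgr5, Tbx3 and Slc1a2 had overlapping intervals and ratios of 0.07 to 0.23. Among the 5 genes under the count minimum, Cyp1a2, a caffeine-oxidising cytochrome P450, had 268 thinned counts in deep and 223 in mid-depth nuclei (55.9 and 38.0 CPM), and Rhbg had 38.4 and 38.3 CPM. Summed over the list, deep nuclei held 2362 CPM (2301 to 2425) and mid-depth nuclei 1883 CPM (1833 to 1933), 25.5% more. The log2 ratio of this sum was 0.33, and 0.26 without the shared barcodes.

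Periportal genes went the other way, though not as a whole list. Of 16 genes, 13 reached the minimum, and 3 of the 13 had a ratio above 0. The median log2 ratio was -0.19. Class intervals were apart for 7 genes, all lower in deep nuclei, where 1.31% of all genes were apart in that direction. Ctsc (chr7:88278085-88310888), the lysosomal peptidase cathepsin C, had 68.2 CPM (58.1 to 79.5) in deep and 118 CPM (106 to 131) in mid-depth nuclei, a log2 ratio of -0.78. Sds, serine dehydratase, had 37.5 and 55.5 CPM (-0.55), but a log2 ratio of -0.13 when thinned to fragments and -0.33 without the 5% of nuclei with the most counts. Most counts of Sds lie in peaks that also count for Plbd2. Hsd17b13 (chr5:103955440-103977410), a lipid droplet enzyme, had 198 and 279 CPM (-0.49), just short of the fold. Hal, which starts histidine breakdown, had 221 and 283 CPM (-0.36). Pck1, which commits carbon to gluconeogenesis, had 456 and 528 CPM (-0.21, and -0.10 when thinned to fragments), and Cps1, the entry enzyme of the urea cycle, 1371 and 1559 CPM (-0.19). Class intervals overlapped for Gls2, Pigr, Ass1, Cyp2f2, Alb and Uroc1, whose ratios ran from -0.17 to 0.17. Summed, the list held 4400 CPM (4316 to 4485) in deep and 4930 CPM (4850 to 5011) in mid-depth nuclei. The log2 ratio of this sum was -0.16, and -0.15 without the shared barcodes.

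Cyp2e1, Cyp2c29 and Ctsc passed the fold under each of 8 other choices of thinning, class limits and cell selection, and in 2 more added after the data were seen, without the shared barcodes and with every count kept at equal weights. In the third added setting, the matching on zonation described below, Cyp2e1 (0.39) and Cyp2c29 (0.32) were under the fold and Ctsc (-0.51) past it. With a window of promoters only, Cyp2e1 had a log2 ratio of 0.76, while no peak lay at the GENCODE start of Cyp2c29, which is farther upstream than the RefSeq start shown above, and Ctsc, with 75 and 156 thinned counts, was under the minimum. Log2 ratios of the 3 genes without the shared barcodes were 0.67, 0.57 and -0.75. In contrast, Setd7 had -0.47 in the main thinning and -0.12 in another, and Selenos had 0.53 and, without the shared barcodes, -0.04.

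The difference ran through the depth range. In nuclei of 6000 to under 10000, 10000 to 14000, over 14000 to under 22000, 22000 to under 30000, 30000 to under 45000 and at least 45000 counts (664, 510, 701, 426, 342 and 191 nuclei), the pericentral list held 1827, 1940, 2044, 2158, 2477 and 2405 CPM. The periportal list held 5007, 4841, 4703, 4619, 4156 and 4190 CPM. Up to 45000 counts each range stood above the one before it in pericentral and below it in periportal counts, with overlapping intervals for all neighbours except those on either side of 30000 counts. Cyp2e1 held 142, 176, 186, 224, 270 and 310 CPM over the 6 ranges. Ctsc went from 122 and 118 CPM in the lowest 2 ranges to 80.8, 72.5 and 63.9 CPM in the highest 3. Hsd17b13 held 288, 265, 226, 201, 188 and 153 CPM. Hal held 317, 253, 266, 246, 165 and 180 CPM. Alb, a gene of the periportal list, held between 793 and 876 CPM with no order by depth. Shared barcodes were 9.65% of nuclei of 30000 to under 45000 counts. Without them the pericentral list held 1831, 1951, 2068, 2173, 2474 and 2346 CPM over the ranges and the periportal list 4960, 4884, 4710, 4674, 4135 and 3752 CPM, and the intervals on either side of 30000 counts stayed apart in both lists. The highest range then kept 67 nuclei. Cyp2e1 held 146 CPM (128 to 166) in the lowest range and 313 CPM (234 to 410) in the highest. Ctsc held 119, 116, 97.1, 74.9, 88.0 and 77.6 CPM over the ranges. Its interval in the highest range (41.3 to 133) overlapped that in the lowest (103 to 137).

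**Figure D3:**
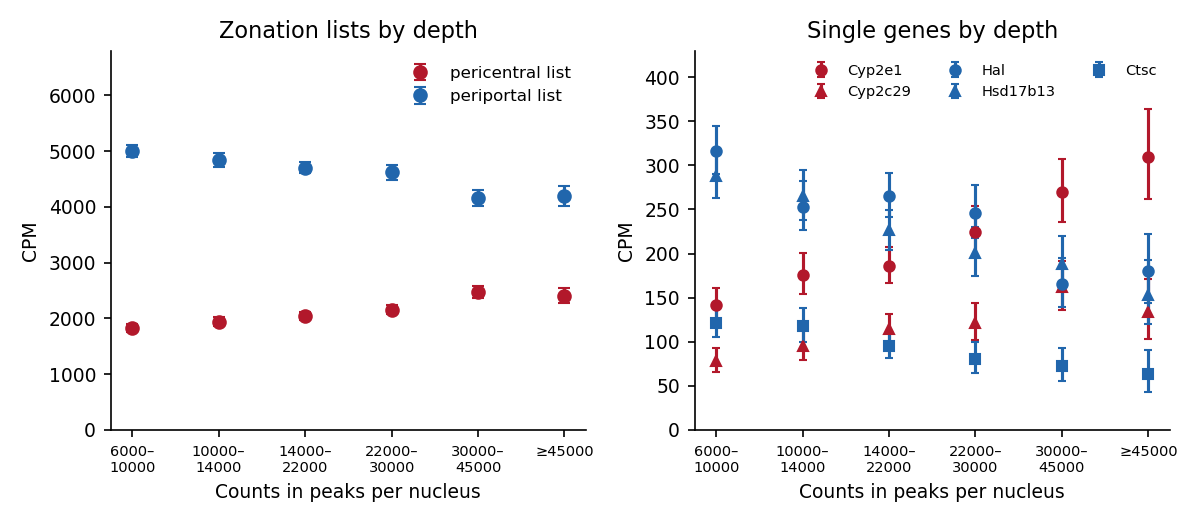
Summed CPM of the pericentral and periportal lists (left) and CPM of 5 genes (right) in nuclei of 6 depth ranges in PHx 48 h, each nucleus thinned to 5000 counts; the horizontal axis gives counts per nucleus and bars are exact 95% Poisson intervals. Cyp2e1 went from 142 CPM in the lowest range to 310 in the highest, and Ctsc from 122 to 63.9.

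In single nuclei, the zonation index was higher in deep nuclei at the median and both quartiles. The zonation index, the log2 of pericentral over periportal counts with 1 added to each, had a median of -0.95 in deep nuclei (quartiles -1.69 and -0.18) and of -1.49 in mid-depth nuclei (quartiles -2.27 and -0.55). Its SD was 1.22 in deep and 1.40 in mid-depth nuclei. The 5th percentile was -2.81 against -3.50, while the 95th percentile was 1.23 against 1.17. The spread and the tails depend on the unit of thinning: with 2500 fragments the SD was 1.30 in deep and 1.31 in mid-depth nuclei, the medians were -0.91 and -1.32, and the 95th percentiles 1.42 and 1.22. Without the shared barcodes the medians were -1.08 and -1.43, and the 95th percentiles 1.41 and 1.20. Across nuclei, pericentral and periportal counts were related with a Pearson r of -0.40 in 959 deep nuclei and -0.36 in 1174 mid-depth nuclei, a description in which the points share 1 library and 1 thinned depth. With every count kept, these values were -0.50 and -0.39, a comparison at unequal counts per nucleus. At 2500 fragments per nucleus they were -0.34 and -0.30.

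**Figure D4:**
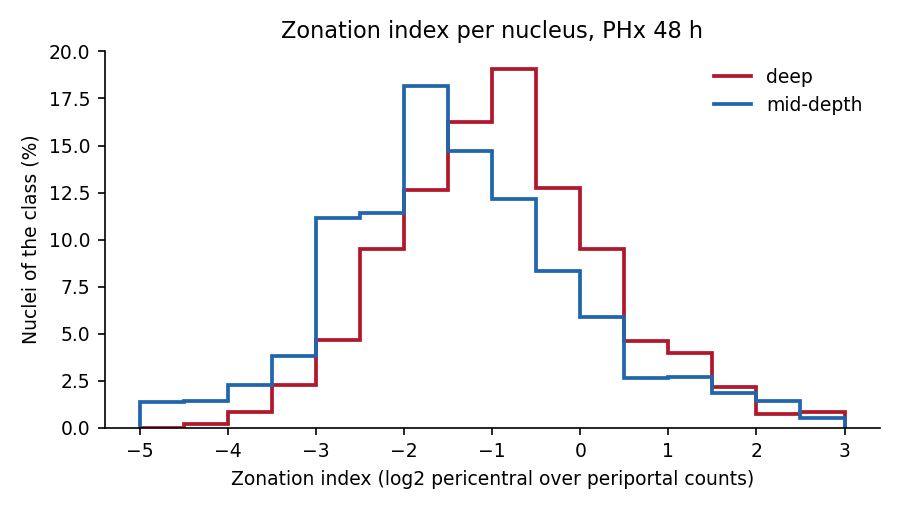
Share of nuclei (vertical axis, percent of the class) by zonation index (horizontal axis, log2 of pericentral over periportal counts, steps of 0.5, ends pooled into the outer steps) in PHx 48 h. The median was -0.95 in deep nuclei (red) and -1.49 in mid-depth nuclei (blue), and the 95th percentiles were 1.23 and 1.17.

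Cell cycle genes had small ratios. With 0.0726% and 0.109% of all genes past the fold and 1.56% and 1.31% with intervals apart, lists of this size would show few or no such genes in any case, so their summed levels are given. Regulators of entry into S phase (G1 to S control) had 8 of 16 genes above the count minimum. None of the 8 passed the fold, and no class intervals were apart. E2f3, an activating E2F factor, had 114 CPM in deep and 96.4 CPM in mid-depth nuclei (log2 ratio 0.25), Ccnd1, cyclin D1, had 95.1 and 88.2 (0.11), and Cdk6 had 219 and 220 (-0.01). The list summed to 1136 CPM (1094 to 1179) against 1085 CPM (1047 to 1123).

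Of the 20 DNA replication genes, 4 reached the minimum, none past the fold. Pcna, the sliding clamp of replication, had 112 CPM (99.2 to 126) in deep and 109 CPM (96.9 to 121) in mid-depth nuclei. Mcm6, a subunit of the replicative helicase, had 48.8 and 53.7 CPM, Fen1 96.4 and 88.4 CPM, and Gins1 66.7 and 60.6 CPM. The 20 genes summed to 731 CPM (698 to 766) in deep and 692 CPM (662 to 723) in mid-depth nuclei, with overlapping intervals.

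Of the 18 G2 and mitosis genes, only Cdc20, an activator of the anaphase-promoting complex, reached the minimum, with 76.1 and 72.2 CPM. Among the others, Mki67, the proliferation marker Ki-67, had 106 and 135 thinned counts (22.1 and 23.0 CPM), and Cdk1, the mitotic kinase, had 228 and 238 (47.6 and 40.5 CPM). The list summed to 509 CPM (481 to 538) against 471 CPM (446 to 496). The polyploidy and cytokinesis list, which holds E2f8, Ect2 and Birc6, had 5 of 14 genes tested, none past the fold, and summed to 871 CPM (834 to 909) against 835 CPM (802 to 868). All 4 sums were 4 to 8% higher in deep nuclei, with overlapping intervals. Without the shared barcodes, log2 ratios of the sums were 0.04 for G1 to S control, 0.11 for DNA replication and 0.08 for G2 and mitosis. Accessibility at these genes does not measure their transcription or DNA content.

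Genes of lipid and xenobiotic metabolism mostly had ratios above 0, as did 54.7% of all genes tested. Of 16 lipid and sterol genes, 15 were tested and 13 had a ratio above 0, with a median log2 ratio of 0.12 and none past the fold. Intervals were apart for 4 genes, all higher in deep nuclei, beside 1.56% of all genes. Fasn, fatty acid synthase, had 293 CPM (272 to 316) in deep and 214 CPM (198 to 232) in mid-depth nuclei (log2 ratio 0.45), but a log2 ratio of 0.10 when binarised. Ppara, a nuclear receptor that controls fatty acid oxidation, had 489 and 402 CPM (0.28), and Scd1, stearoyl-CoA desaturase, 178 and 146 CPM (0.28). Fbp1, a gluconeogenic phosphatase, had 307 and 375 CPM (-0.29). It belongs to the list of glucose and amino acid metabolism, in which 4 of 13 tested genes had a ratio above 0 and the median was -0.07. Of 13 tested genes of bile acid and xenobiotic metabolism, 10 had a ratio above 0, with a median of 0.17. Intervals were apart for Cyp3a11, a cytochrome P450 of drug oxidation, with 387 and 279 CPM (0.47, and 0.17 when binarised), Slco1b2, an uptake transporter, with 354 and 298 CPM (0.25), and Cyp7a1, the rate-limiting enzyme of bile acid synthesis, with 204 and 170 CPM (0.26).

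Growth factor receptors, immediate early genes, acute phase genes, the fetal state factors and chromatin genes had no member past the fold, which 0.0726% and 0.109% of all genes passed. Egfr had 2106 CPM (2048 to 2165) in deep and 2349 CPM (2294 to 2405) in mid-depth nuclei (log2 ratio -0.16), and Igf1r 112 and 142 CPM (-0.34). Intervals were apart for these 2 of the 10 receptors tested, both lower in deep nuclei, beside 1.31% of all genes. Median log2 ratios were 0.01 for 10 growth factor receptors (-0.01 with every count kept), -0.04 for 11 immediate early and stress genes, -0.03 for 12 acute phase genes, -0.11 for 6 fetal state factors, a list that follows factors the study itself chose and in which 1 of the 6 was above 0 (3 of 6 with every count kept), and -0.05 for 8 chromatin genes. In the acute phase list Fga and Fgg had identical counts, as did Orm1 and Orm2, and Mt1 and Mt2, so its median counts some peaks more than once. The fetal state list summed to 794 CPM (759 to 831) in deep and 866 CPM (832 to 900) in mid-depth nuclei, with intervals apart. Yap1, the Hippo pathway coactivator, had 149 and 179 CPM (-0.26).

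The 12 genes with the highest and the 12 with the lowest ratios were named by rule. Besides Syce1, which stands for the peak it shares with Cyp2e1, and Cyp2c29, Selenos, Cyp3a11 and Fasn, the higher genes included Myl7, which shares most of its counts with a neighbouring gene, and Grm7, Pink1, Asgr1, Dcakd and Map2k3. The ratios of the 12 ran from 0.45 to 0.79, with class intervals apart for 9 of the 12, among them Asgr1, a subunit of the asialoglycoprotein receptor, with 81.3 and 58.9 CPM. Sds and Isg20, both among the lower genes, also share most of their counts with another gene. Besides Ctsc, Sds and Hsd17b13, the lower genes were Bcl2, an inhibitor of apoptosis, Kazn, L3mbtl4, Isg20, Nav3, Plekha2, Setd7, Zbtb46 and Arhgap10. Their ratios ran from -0.78 to -0.45, with intervals apart for 8 of the 12. With every count kept, the ratios of these genes ran from 0.27 to 0.76 and from -0.75 to -0.15, and all kept their direction. Since they were picked for their ratios, these values describe the extremes.

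Single peaks, whose counts also make up the gene values, were compared in the same way. Among 26814 peaks with at least 100 thinned counts, 853 (3.18%) were past the fold higher in deep nuclei and 762 (2.84%) lower. With every count kept and equal weights, 253 (0.946%) and 266 (0.995%) passed. Peaks at promoters, within 1000 bp of a transcription start site (TSS), passed in 2.68% and 2.25% of 14124 cases, and peaks outside genes in 4.17% and 3.48% of 4487. Of 34 tested peaks at pericentral genes, 7 were past the fold higher and 0 lower, and of 23 at periportal genes 1 was higher and 4 lower. Among peaks with at least 300 counts, the highest ratio was that of chr19:39296318-39311718 in the body of Cyp2c29, with 61.3 CPM in deep and 33.7 CPM in mid-depth nuclei (log2 ratio 0.84). Next came chr7:140762784-140779476, which covers Cyp2e1 and reaches Syce1 (0.79). It was followed by chr8:86613751-86618672, outside genes and 5371 bp from the nearest TSS, that of Lonp2 (0.73), and by peaks in Pde4dip (0.60) and Col18a1 (0.59). The lowest ratios were those of chr7:88287118-88297228 at Ctsc, with 31.1 and 57.9 CPM (-0.88), and of promoter peaks of Nav3 (-0.83), Rasgef1b (-0.71), Arglu1 (-0.66) and Tigd2 (-0.63).

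Promoters took a slightly larger share of counts in deep nuclei. Peaks within 1000 bp of a TSS held 52.2% of thinned counts (exact binomial interval 52.2 to 52.3) in deep and 51.6% (51.6 to 51.7) in mid-depth nuclei, a difference of 0.595 percentage points. Gene bodies held 30.9% against 31.4%, and peaks outside genes 16.8% against 17.0%. For description, the promoter share of single nuclei had quartiles of 50.6% and 53.6% in deep and 49.5% and 53.2% in mid-depth nuclei. It was 0.599 points without the shared barcodes and 0.763 points in hepatocyte-like nuclei only.

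Deep nuclei also had more of their counts in gene-dense DNA. When peaks were split into 5 bins of equal counts by the number of protein-coding gene starts within 1 Mb, the sparsest bin held 19.6% of counts in deep and 20.4% in mid-depth nuclei (4.26% fewer), and the densest 20.5% against 19.5% (4.78% more). The steps between were ordered, at -1.95%, 0.147% and 1.51%. Over the 6 depth ranges the densest bin held 19.4, 19.7, 19.9, 20.2, 20.6 and 20.7% of counts. Bins by peak length were ordered too, from the shortest to the longest peaks at -4.67%, -0.177%, 1.45%, 1.63% and 1.93%. Gene density and peak length were not separated. Bins by GC content were not ordered this way, at -0.434%, 0.992%, 0.709%, 0.721% and -1.96%. By chromosome, chromosome 19 held 2.25% (2.23 to 2.27) of counts in deep and 2.10% (2.08 to 2.11) in mid-depth nuclei, 7.12% more, and chromosome 11 held 5.72% against 5.51%, 3.86% more. Chromosome 3 was lowest, at -2.18%, and chromosome X was even, at 1.23% in both classes. Of the 12 named higher genes, 5 (Myl7, Asgr1, Dcakd, Fasn and Map2k3) lie on chromosome 11, which holds 6.01% of tested genes. Without chromosomes 11 and 19, the densest bin still held 4.62% more. Without the shared barcodes, the log2 ratio was 0.06 for the densest bin and 0.09 for chromosome 19, beside 0.07 and 0.10 with them. Across the 19 autosomes, the change in share and the mean gene density around the counts had a Pearson r of 0.69, a description over chromosomes of 1 library.

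**Figure D5:**
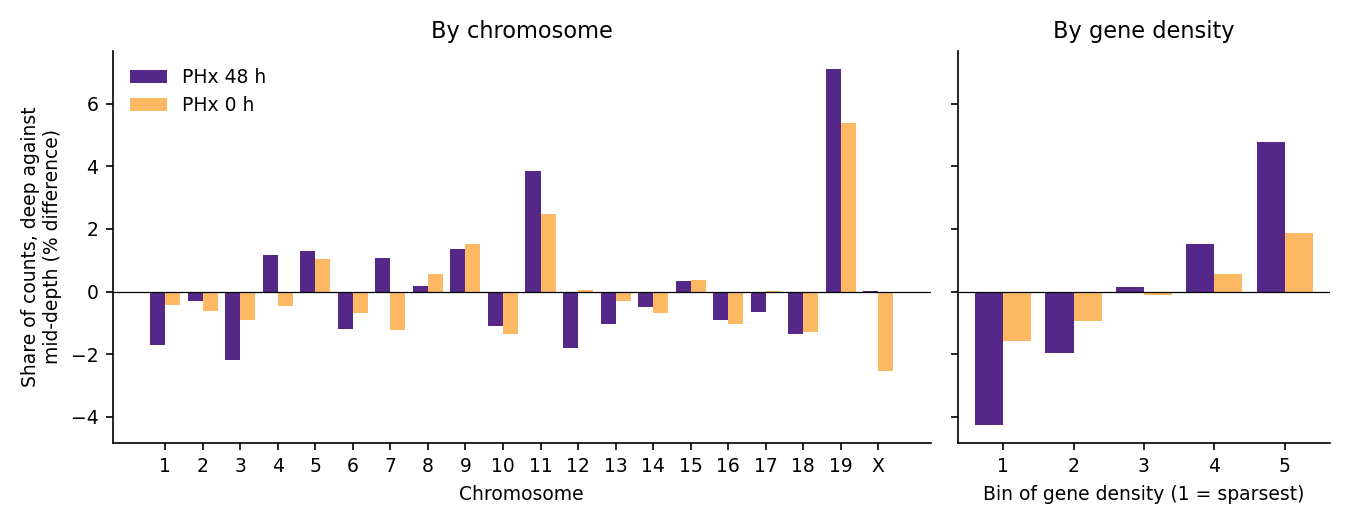
Difference in the share of counts, deep against mid-depth nuclei in percent (vertical axis), by chromosome (left) and by bin of gene density (right), in PHx 48 h (purple) and PHx 0 h (orange). Chromosome 19 stands highest in both libraries, at 7.12% and 5.37%, and the densest bin is higher by 4.78% and 1.87%.

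Values were also taken with mid-depth nuclei reweighted to the zonation index of the deep nuclei. Then 0 genes passed the fold higher and 2 lower, Ctsc and Cuedc1. The 3 genes higher with equal weights were Cyp2e1 and Cyp2c29, which are in the lists behind the index, and Syce1, which shares a peak with Cyp2e1, so the matching itself lowered their ratios. Log2 ratios of Cyp2e1 and Ctsc, also in those lists, went from 0.74 and -0.75 with equal weights to 0.39 and -0.51. Fasn, which is not in those lists, went from 0.40 to 0.29, the densest bin from 0.07 to 0.05 on the log2 scale, chromosome 19 from 0.10 to 0.05, and the promoter share from 0.601 to 0.492 points. The log2 ratio of the DNA replication list went from 0.09 to 0.04 and that of G2 and mitosis from 0.08 to 0.03. That of G1 to S control went from 0.03 to 0.00. Both settings used the same nuclei and counts, so the counting error of the sums does not measure these changes. The index rests on few counts, with a mean of 11.8 pericentral counts per deep nucleus, so its counting error limits the matching.

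The same depth limits could be applied to undamaged liver, while PHx 72 h and PHx 96 h held 22 and 5 deep nuclei and were not compared. PHx 0 h held 2219 deep and 568 mid-depth nuclei, with medians of 45775 and 10048 counts. No shared barcodes were left out at 0 h. Of the PHx 48 h barcodes under 1000 counts, 591 recurred at 0 h, with a median of 79905 counts there. Deep nuclei at 0 h therefore included shared barcodes. The zonal difference was present at 0 h too, with these barcodes kept. The pericentral list held 1918 CPM (1882 to 1955) in deep and 1489 CPM (1426 to 1554) in mid-depth nuclei, a log2 ratio of 0.37, beside 0.33 at 48 h. The periportal list had a log2 ratio of -0.09 (4441 and 4738 CPM), beside -0.16. Of 10 pericentral genes tested in both libraries, 10 were above 0 in each, and of 13 periportal genes 12 were below 0 at 0 h. Over all genes tested, 54.7% were above 0 at 48 h, and the share at 0 h is not given to set beside these counts. Cyp2e1 had 317 CPM in deep and 161 CPM in mid-depth nuclei at 0 h (log2 ratio 0.97), Cyp2c29 had 0.55, Ctsc -0.40 and Sds -0.46. Fasn had a log2 ratio of 0.10 at 0 h. The stellate list was lower in deep nuclei at 0 h, at 81.0 against 113 CPM, and the Kupffer list stood at 64.1 against 74.3 CPM; their part in the values at 0 h was not tested. At 0 h 39 genes (0.52%) were past the fold higher and 33 (0.44%) lower, of 7498. Across 5303 genes tested in both libraries, the log2 ratios at 48 h and 0 h had a Pearson r of 0.35, and of 0.34 without the zonation lists, a description across genes, which are not independent. Across the 19 autosomes the changes in share had an r of 0.89. Whether any of these differences varies between the libraries was not tested, since each time point had 1 library.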

How the data were processed

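Per the file headers, the authors made the deposited counts with Cell Ranger ATAC 1.1.0; they are whole numbers of transposase cut sites per peak and barcode, and 87.5% of the values at 48 h were even, as both ends of a fragment add 2. Peaks were called per library on all its reads, so deep nuclei, with 55.7% of the counts, weighed most in where peaks lie. All peaks ended inside GRCm38 (mm10) chromosomes, and GENCODE vM21 gene models were used. Cutoffs on nuclei are described by the study without values. The classes, gene lists and tests were chosen with earlier results of these data known. Each nucleus was thinned to 5000 counts without replacement and summed per class. Genes named were the 12 highest and 12 lowest autosomal protein-coding genes with at least 500 counts, leaving out any that shared most of its counts with one already named, plus list members (values of some are not reported here), and the 5 highest and 5 lowest peaks with at least 300. The 20 gene lists stand in the report by group. Nuclei are not replicates, so no test was run. Python 3.11.15, numpy 2.4.6, scipy 1.17.1 and leidenalg 0.10.2 were used, and the ratio was tested on simulated data.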

Additional observations from a re-analysis of the deposited data

Results flagged for a closer look

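In 5 readouts the PHx 48 h and PHx 0 h libraries went in opposite directions, and with 1 library at each time point these differences between time points were not tested. The promoter share was 0.595 percentage points higher in deep nuclei at 48 h, and deep minus mid-depth was -0.332 points at 0 h. The log2 ratio of the G1 to S control list was 0.0666 at 48 h and -0.0845 at 0 h, that of the DNA replication list 0.0799 and -0.0418, that of the G2 and mitosis list 0.112 and -0.0520, and that of the polyploidy and cytokinesis list 0.0612 and -0.00766. For each of the 4 lists the counting intervals of deep and mid-depth nuclei overlapped in both libraries.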

How the results depend on the processing

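Counts past the fold moved most. Genes higher in deep nuclei, 4 in the main analysis, numbered 10 with another seed, 20 with 2500 fragments, 8 with deep nuclei of at least 26000 counts, 17 with mid-depth nuclei of 8000 to 12000, 7 without the 5% of nuclei with the most counts, 9 in hepatocyte-like nuclei, 1 with a promoter-only window, 443 without the count minimum and 0 after matching on zonation. Genes lower, 6, numbered 14, 11, 1, 2, 649 and 2 with fragments, the 26000 limit, the top 5% left out, the promoter-only window, no minimum and matching. Peaks higher, 853, numbered 1530 with fragments, 239 without thinning, 253 with equal weights, 264 with matching and 28 at a minimum of 300. Peaks lower, 762, numbered 1353, 229, 266, 270 and 19 under these, and 503 with mid-depth nuclei of 8000 to 12000. The pericentral log2 ratio (0.33) was 0.24 when binarised and 0.265 without shared barcodes. The periportal one (-0.16) was -0.23 when binarised and -0.23 at the 26000 limit. The promoter difference (0.595) was 0.763 in hepatocyte-like nuclei and 0.492 after matching. The correlation in deep nuclei (-0.40) was -0.50 without thinning and -0.50 with equal weights. The difference in median zonation index (0.54) was 0.415 with fragments and 0.350 without shared barcodes, and the r with undamaged liver (0.20) was 0.159 with fragments. The log2 ratio of the densest bin (0.0674) was 0.0764, 0.0733 and 0.0458, and that of chromosome 19 (0.0992) was 0.117, 0.122 and 0.0524, at the 26000 limit, in hepatocyte-like nuclei and after matching. After matching, Cps1 turned to 0.0678 and Pck1 to 0.000475; without shared barcodes, Selenos turned to -0.0409. The cause was not tested. The zonation sums (not computed after matching), promoter share, densest bin, chromosome 19, and G1 to S, DNA replication and G2 and mitosis sums kept their direction under the alternatives run for each; the polyploidy list had none. Matching, equal weights, leaving out shared barcodes, and the index and undamaged-liver values with fragments were chosen after seeing the data. No paired analysis was possible because each time point had 1 library.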

Other observations

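At single peaks, differences between the depth classes and between the PHx 0 h and PHx 48 h libraries were weakly related. Over 9494 peaks whose lengths in the PHx 48 h and PHx 0 h libraries differed by at most 10%, the log2 ratio of PHx 0 h over the PHx 48 h nuclei between the classes was related to the log2 ratio of deep over mid-depth nuclei with a Pearson r of 0.20. This is a description over peaks that share libraries and base composition. The r was 0.18 without the shared barcodes, of which deep nuclei held far more, and 0.16 when thinned to fragments. Deep nuclei gave most counts of the PHx 0 h library, and depth was not matched between the libraries, so the part of depth in this relation was not tested. The 20% of peaks highest at 0 h (median log2 ratio 0.60) had a median of 0.11 in deep over mid-depth nuclei, and the 20% lowest at 0 h (median -0.20) had a median of -0.01.

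Thinned nuclei of unequal depth differed in how many peaks they covered. At 5000 counts, nuclei of 6000 to under 10000 counts had a mean of 3112 distinct peaks and nuclei of at least 45000 counts had 4238. When thinned to 2500 fragments, so that both ends of a fragment stayed together, the means were 2296 and 2329.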
